A study of Mus musculus with 18 samples.

Results

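The genes of the RAS switch and the first steps of its kinase cascade were followed in lung tumours and control lung of B6C3F1/N mice. The list holds 8 genes: the RAS GTPases Nras and Hras, the exchange factor Sos1, the GTPase-activating proteins Nf1 and Rasa1, the kinases Braf and Araf, and the kinase Map2k1, also called MEK1. A gene was measured by the probe sets whose platform annotation gives its symbol and no other, and its main value came from the brightest of them, by the mean of all arrays. By this rule 7 of the 8 genes were measured, among 18193 genes in all, with 29 probe sets between them. Hras had no such probe set and was not analysed here.

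RNA of 18 samples was hybridised to Affymetrix mouse 3' expression arrays, 1 array per sample. The cobalt tumours (n = 6) were lung tumours labelled as cobalt treated, from mice that inhaled cobalt metal aerosol, the spontaneous tumours (n = 6) were lung tumours labelled as spontaneous, and the control samples (n = 6) were lung labelled as vehicle control. In the study, male and female mice aged 5 to 6 weeks at the start breathed air with no cobalt (0 mg/m3) or with 1 of 3 aerosol levels (1.25 mg/m3, 2.5 mg/m3 and 5 mg/m3), on 5 days a week and 6 hours a day for up to 105 weeks, and tumours were dissected from the lung around them. Neither dose nor sex is labelled for single samples. Since no label states that samples of a group came from different mice, the p-values cover the spread between arrays only, part of which may be technical. The values are log2 levels, and no level of one probe set was set against that of another, since each probe binds with its own strength.

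RAS proteins are small GTPases at the inner face of the cell membrane that signal while they carry GTP. Exchange factors such as Sos1 load them with GTP below growth factor receptors, and GTPase-activating proteins such as Nf1 and Rasa1 end the signal by speeding GTP hydrolysis. Active RAS recruits RAF kinases, which phosphorylate MEK, which phosphorylates ERK, and mutations that lock RAS or RAF in the active state are common drivers of lung adenocarcinoma and of mouse lung tumours. The arrays measured RNA levels, and neither mutations nor protein activity were measured here.

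Some arrays stood apart. The description of control 6 names a spontaneous tumour, against its title, source and group label, and by expression it lay with the other controls, with a mean correlation of 0.989 with them over all genes. Cobalt tumour 6 correlated better with the controls (0.969) than with its own group (0.945), and spontaneous tumours 2 and 6 lay apart from all other tumours on the second principal component (62.1 and 53.5, against -27.7 to 22.3). An Xist level above 10 was seen in 4 cobalt tumours, 2 spontaneous tumours and all 6 controls, so the sex of the animals, as far as Xist reports it, was not balanced between the groups. The tissue labels were checked on cell type markers. The mean of 8 alveolar type 2 markers was 13.49 to 13.67 in cobalt tumours, 12.29 to 13.83 in spontaneous tumours and 12.66 to 12.93 in controls, with spontaneous tumours 2 and 6 lowest at 12.40 and 12.29. The mean of 10 endothelial markers was 7.53 to 10.63 in cobalt tumours, with cobalt tumour 6 highest, 7.93 to 9.49 in spontaneous tumours and 11.38 to 11.75 in controls.

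Of the 7 measured genes, Map2k1 was higher than in controls in both kinds of tumour, and the other 6 did not pass the test in either. This is 14.3% of the genes, against 34% of all genes called in cobalt tumours and 34.6% of all genes called in spontaneous tumours (14.7% and 16.4% in the higher direction), where a gene was called at a limma p under 0.05 after Benjamini-Hochberg adjustment over all 18193 genes. The other 6 genes differed from controls by -0.13 to 0.13 in cobalt tumours and by -0.21 to 0.29 in spontaneous tumours, on the log2 scale. The 7 genes had a median log2 difference of 0.04 in cobalt tumours and 0.07 in spontaneous tumours, and over all genes that median was -0.03 in each comparison. Between cobalt and spontaneous tumours 0 of the 7 genes were called by limma, against 0.0824% of all genes, and 0 had an unadjusted p under 0.05. The tumour groups were set against the same 6 controls, so their 2 comparisons are not independent, and in bulk tissue fewer cells of a type and less RNA per cell cannot be told apart.

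**Figure D1:**
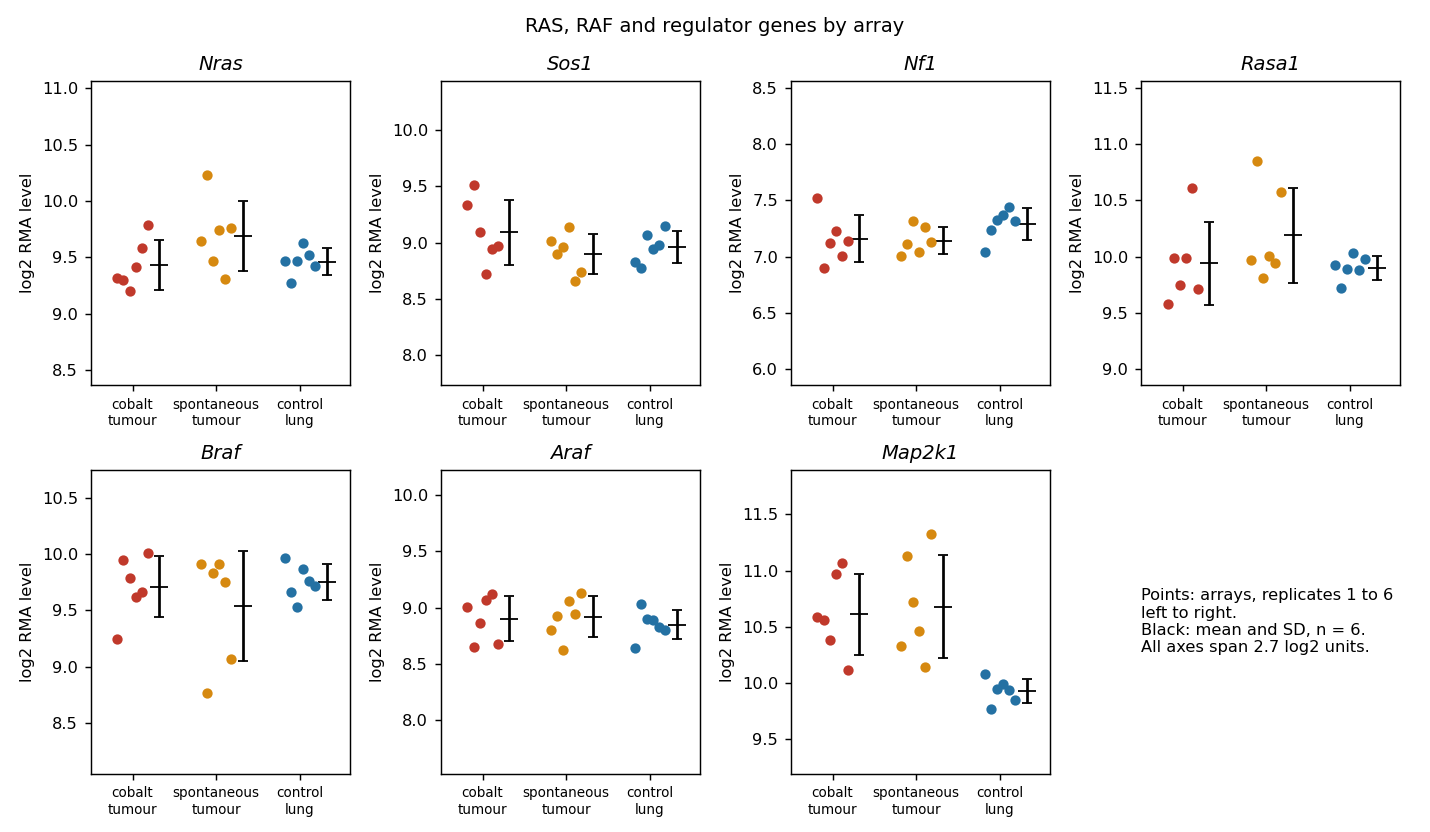
Log2 RMA level of the brightest probe set of each of the 7 measured genes in cobalt tumours, spontaneous tumours and control lungs, with 1 point per array and the mean and SD of 6 arrays in black. All 12 tumours lay above all 6 controls for Map2k1, while the groups overlapped for the other 6 genes.

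Map2k1 encodes MEK1, the kinase that RAF phosphorylates and that in turn activates ERK. Its level had a minimum of 10.12, a median of 10.57 and a maximum of 11.07 in cobalt tumours. In spontaneous tumours the minimum was 10.14, the median 10.59 and the maximum 11.32, and in controls 9.77, 9.94 and 10.08. Every tumour of both groups therefore lay above every control, with cobalt tumour 6 and spontaneous tumour 5 closest to the controls. Among all genes, 8.1% were above the controls without overlap in cobalt tumours and 9.21% in spontaneous tumours.

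The mean level of Map2k1 was 10.61 ± 0.36 in cobalt tumours, 10.68 ± 0.46 in spontaneous tumours and 9.93 ± 0.11 in controls (SD, n = 6 each). It was 1.61-fold higher in cobalt tumours than in controls (log2 difference 0.68, SE 0.19, limma adjusted p = 0.00908). In spontaneous tumours it was 1.69-fold higher than in controls (log2 difference 0.75, SE 0.19, limma adjusted p = 0.00478). A two-sided exact permutation test over the 924 divisions of 12 arrays gave p = 0.00216 for each, the smallest this design can give. The tumour groups differed by -0.07 (95% interval -0.47 to 0.33, limma adjusted p = 0.927), cobalt minus spontaneous. Both rises kept their call in all 30 alternative settings, including only the arrays with an Xist level above 10 (0.60 in 4 cobalt and 0.96 in 2 spontaneous tumours). Those 2 were spontaneous tumour 4, at 0.53 above the control mean, and tumour 6, at 1.39 the highest array for Map2k1. Not all of the 30 settings could move the difference. Map2k1 has 1 probe set, so averaging probe sets changed nothing, and no other probe set checks its rise. Leaving out an array of the other tumour group also left the difference as it was. So did leaving out the dimmest genes, another variance model, the replicate block and only the 12 arrays compared. The permutation test and the fit of all probe sets left it unchanged too. Such settings could change only the p-value. Without spontaneous tumours 2 and 6 and cobalt tumour 6 the differences were 0.78 in cobalt and 0.48 in spontaneous tumours.

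The spread of Map2k1 among tumours was 0.36 and 0.46 against 0.11 in controls. Measured from the control mean, spontaneous tumours 6 and 2 were highest, at 1.39 and 1.20, followed by cobalt tumours 5 and 4 at 1.14 and 1.04. Cobalt tumour 6 and spontaneous tumour 5 were lowest, at 0.19 and 0.21. Cell type markers moved with the groups too: 10 of 10 endothelial markers were lower in each tumour group, and of 8 alveolar type 2 markers 6 were higher in cobalt and 4 in spontaneous tumours. Their part in the difference of Map2k1 was not tested.

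Among 11707 genes compared (without the 6064 dimmest, and with clone names, Xist and Y-linked genes left out), Krt8 and Rin1 had the levels most like those of Map2k1. Krt8 encodes a keratin of simple epithelia, and Rin1 encodes a RAS effector that acts on RAB5 and ABL kinases. Pearson's r between Map2k1 and Krt8 was 0.97 over the 18 arrays and 0.95 over the 12 tumours. For Rin1 the same values were 0.95 and 0.92. Krt8 averaged 12.84 ± 0.60 in cobalt tumours, 12.85 ± 0.90 in spontaneous tumours and 11.33 ± 0.12 in controls. Spontaneous tumours 2 and 6 and cobalt tumours 4 and 5 were the 4 highest arrays for Map2k1, Krt8 and Rin1 alike. The points share their arrays, their normalization and the gap between tumour and control, and the pairs were chosen as the highest of many, so r is a description.

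**Figure D2:**
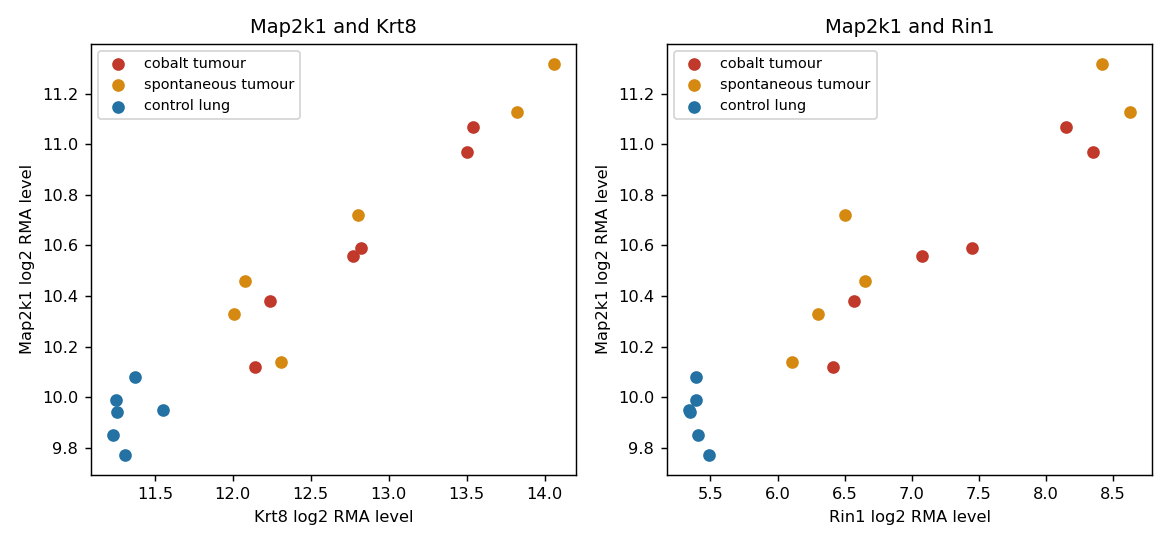
Log2 RMA level of Map2k1 against that of Krt8 (left) and Rin1 (right), with 1 point per array for 6 cobalt tumours, 6 spontaneous tumours and 6 control lungs. The 6 controls lie at the lower left, and spontaneous tumours 2 and 6 with cobalt tumours 4 and 5 at the upper right.

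Because Map2k1 and Rin1 moved together, the 250 bases before the start of each gene are shown, from RefSeq and build GRCm38.p6, read 5′ to 3′ along the gene. The Map2k1 window lies at chr9:64253606-64253855 on the minus strand, and the Rin1 window at chr19:5050565-5050814 on the plus strand. Capitals mark matches on either strand to 5 motifs. These were GGGCGG, the GC box bound by SP factors, the CCAAT box, and TGANTCA, bound by AP-1. The others were TGACGT, the core of the cAMP response element, and CCGGAA, the core bound by ETS factors.
Map2k1: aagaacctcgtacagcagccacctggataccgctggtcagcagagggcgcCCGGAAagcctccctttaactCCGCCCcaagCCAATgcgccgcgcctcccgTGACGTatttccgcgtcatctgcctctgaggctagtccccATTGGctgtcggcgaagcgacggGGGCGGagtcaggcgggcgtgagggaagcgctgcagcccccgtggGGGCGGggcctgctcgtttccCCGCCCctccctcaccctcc
Rin1: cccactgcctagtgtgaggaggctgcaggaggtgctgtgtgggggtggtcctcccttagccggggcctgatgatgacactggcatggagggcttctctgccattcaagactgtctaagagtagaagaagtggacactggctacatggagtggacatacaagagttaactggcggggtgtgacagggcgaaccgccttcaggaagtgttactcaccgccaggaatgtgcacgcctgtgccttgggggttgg
The Map2k1 window held 4 matches to GGGCGG, 2 to CCAAT, 1 to TGACGT and 1 to CCGGAA, none of them overlapping, and 0 to TGANTCA. The Rin1 window held 0 matches to any of the 5. Among 32851 such windows of all genes in the table, 32.7% held GGGCGG, 33.8% CCAAT, 6.47% TGACGT, 12.0% CCGGAA and 6.75% TGANTCA. G and C made up 68.4% of the Map2k1 window, 58.0% of the Rin1 window and a median of 52.4% over all windows. A match is a description of the letters, and binding was not measured.

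Nras, one of the 3 classical RAS GTPases, did not pass the test in either tumour group. Its level had a minimum of 9.20, a median of 9.36 and a maximum of 9.79 in cobalt tumours. The same values were 9.31, 9.69 and 10.23 in spontaneous tumours and 9.27, 9.47 and 9.63 in controls. The groups overlapped, with the highest level in spontaneous tumour 2, at 0.77 above the control mean. The difference from controls was -0.03 in cobalt tumours (95% interval -0.31 to 0.25, limma adjusted p = 0.893). In spontaneous tumours it was 0.23 (95% interval -0.05 to 0.51, limma adjusted p = 0.193). Cobalt minus spontaneous, it was -0.26 (95% interval -0.53 to 0.02, limma adjusted p = 0.471). The other 2 probe sets of Nras were not called either, and the 3 ranged from -0.11 to 0.21 in cobalt and from -0.07 to 0.41 in spontaneous tumours. Cdyl2 (r = 0.85 over 18 arrays) and Adamdec1 (r = 0.84) were most like it.

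Sos1, the exchange factor that the adaptor Grb2 brings to activated receptors, averaged 9.09 ± 0.29 in cobalt tumours, 8.90 ± 0.18 in spontaneous tumours and 8.96 ± 0.14 in controls (SD, n = 6 each). The range was 8.72 to 9.51 in cobalt tumours, 8.66 to 9.14 in spontaneous tumours and 8.77 to 9.15 in controls, so the groups overlapped. Cobalt tumours 2 and 1 were highest, at 0.56 and 0.37 above the control mean. The difference from controls was 0.13 in cobalt tumours (limma adjusted p = 0.435) and -0.05 in spontaneous tumours (limma adjusted p = 0.758). All 5 probe sets of Sos1 had positive differences in cobalt tumours, from 0.01 to 0.26, and 0 of them were called. They share a gene and are not replicates. In spontaneous tumours they ranged from -0.05 to 0.34, with 0 called by limma and 2 at an unadjusted p under 0.05. Kmt5b (r = 0.84) and Zbtb24 (r = 0.77) were most like Sos1.

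The GTPase-activating proteins that switch RAS off did not pass the test. Nf1 encodes neurofibromin, the product of the gene lost in neurofibromatosis type 1. It averaged 7.16 ± 0.21 in cobalt tumours, 7.14 ± 0.12 in spontaneous tumours and 7.29 ± 0.14 in controls (SD, n = 6 each). It differed from controls by -0.13 in cobalt (limma adjusted p = 0.323) and by -0.14 in spontaneous tumours (limma adjusted p = 0.273). The ranges overlapped, at 6.90 to 7.52 in cobalt tumours, 7.01 to 7.32 in spontaneous tumours and 7.04 to 7.44 in controls. Its other 2 probe sets had means under 6, where it is not known whether a probe set lies above background, and 0 of the 3 were called. Prpf8 (r = 0.79) and Man1b1 (r = 0.76) were most like Nf1.

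Rasa1 encodes p120 RasGAP, which binds activated growth factor receptors through its SH2 domains. Its level had a minimum of 9.58, a median of 9.87 and a maximum of 10.61 in cobalt tumours. The same values were 9.81, 9.99 and 10.85 in spontaneous tumours and 9.72, 9.91 and 10.03 in controls. The groups overlapped, and the 3 highest arrays were spontaneous tumours 2 and 6, at 0.95 and 0.67 above the control mean, and cobalt tumour 5, at 0.71. These were also among the 4 highest tumours for Map2k1. The difference from controls was 0.04 in cobalt tumours (limma adjusted p = 0.903) and 0.29 in spontaneous tumours (95% interval -0.09 to 0.67, limma adjusted p = 0.237). All 3 probe sets had positive differences, from 0.04 to 0.31 in cobalt and from 0.29 to 0.39 in spontaneous tumours. By limma 0 were called, and 2 had an unadjusted p under 0.05 in spontaneous tumours. Ifi202b and Ube2k were most like Rasa1, each with r = 0.92 over 18 arrays.

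**Figure D3:**
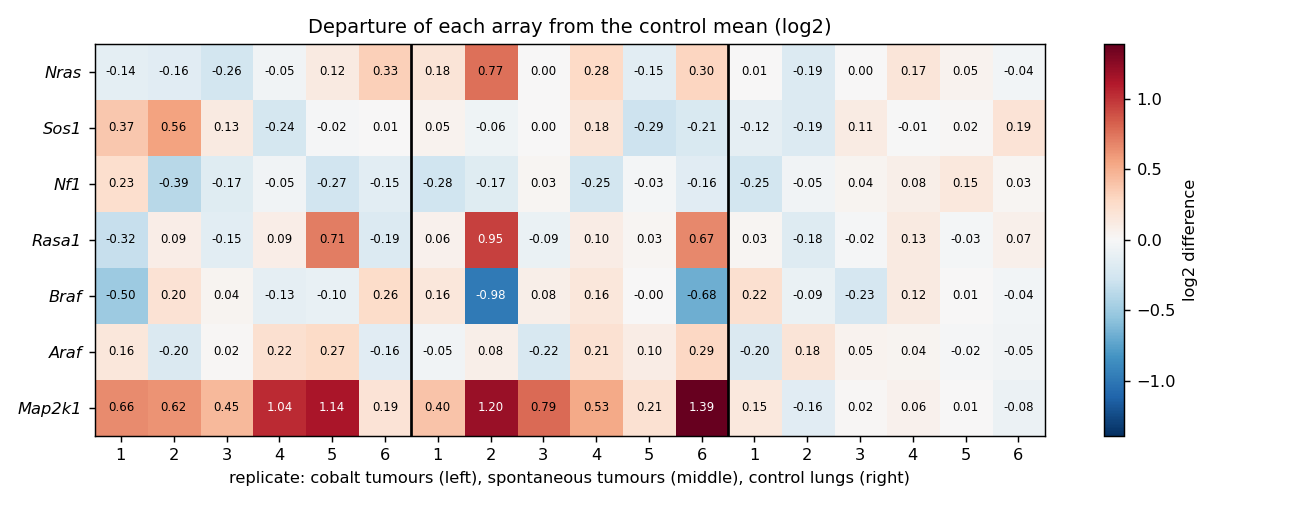
Log2 difference of each array from the mean of the 6 controls for the 7 measured genes, with cobalt tumours on the left, spontaneous tumours in the middle and control lungs on the right, and the value printed in each cell. Spontaneous tumours 2 and 6 combine the highest Map2k1 (1.20 and 1.39) with high Rasa1 (0.95 and 0.67) and the lowest Braf (-0.98 and -0.68).

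Braf, the RAF kinase most often mutated in human cancers, had 9 probe sets that did not move alike. By its brightest probe set it was not called in either tumour group, and that choice was close to a tie: 1435434_at had a mean of 9.668 over all arrays, and 1435480_at, also not called, one of 9.662. The brightest probe set had a minimum of 9.25, a median of 9.72 and a maximum of 10.01 in cobalt tumours, against 8.77, 9.79 and 9.91 in spontaneous tumours and 9.53, 9.74 and 9.97 in controls. The groups overlapped, with spontaneous tumours 2 and 6 lowest, at -0.98 and -0.68 from the control mean, and cobalt tumour 1 next at -0.50. The difference from controls was -0.04 in cobalt tumours (limma adjusted p = 0.903) and -0.21 in spontaneous tumours (limma adjusted p = 0.402). Averaged over all 9 probe sets, the sign turned to 0.38 in cobalt (limma adjusted p = 0.0879) and 0.17 in spontaneous tumours (limma adjusted p = 0.461). Tmem50b (r = 0.88 over 18 arrays) and Ptprg (r = 0.83) were most like the brightest probe set.

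When all 34945 probe sets with 1 symbol were tested, 4 of the 9 Braf probe sets (44.4%) were called in cobalt tumours. In spontaneous tumours 1 of the 9 (11.1%) was called, and the calls in both groups were higher, with 0 lower. Of all probe sets, 33.1% were called in either direction in each comparison, and the share called higher is not given here. The largest difference was that of 1425693_at. Its level was 7.09 to 7.88 in cobalt tumours (median 7.39), 6.43 to 7.88 in spontaneous tumours (median 7.48) and 6.39 to 6.82 in controls (median 6.44). All 6 cobalt tumours and 5 of 6 spontaneous tumours lay above every control. The share of all probe sets that lay apart from the controls is not given here, which also limits the probe sets below. It was higher by 0.93 in cobalt (limma adjusted p = 0.00253) and by 0.84 in spontaneous tumours (limma adjusted p = 0.00555).

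The other 3 Braf probe sets called in cobalt tumours rose less. Probe set 1447941_x_at, whose suffix marks probes that can bind other transcripts, averaged 7.98 ± 0.16 in cobalt tumours, 7.78 ± 0.40 in spontaneous tumours and 7.45 ± 0.25 in controls. Its difference was 0.54 in cobalt tumours (limma adjusted p = 0.0144), with all 6 above every control, and 0.34 in spontaneous tumours (limma adjusted p = 0.114). Probe sets 1456505_at (0.48, limma adjusted p = 0.0425) and 1442749_at (0.43, limma adjusted p = 0.0335) lost the call in 15 of 28 and 9 of 27 alternative settings, among them those without control 2, 3, 4, 5 or 6 or cobalt tumour 2, 3 or 6, and for 1456505_at also those without control 1, spontaneous tumour 3 or cobalt tumour 1 or 5. Probe set 1442749_at had a mean near 5, where the array background is not known. Probe set 1435480_at also lay above every control in all 6 cobalt tumours, at 9.78 to 10.15 against 9.09 to 9.63 in controls, but was not called (0.45, limma adjusted p = 0.12). Cobalt minus spontaneous, all 9 differences in means were positive, from 0.09 to 0.34, and 0 of the 9 were called. The 9 share a gene and the same arrays and are not replicates. Medians did not all go this way, at 9.72 in cobalt and 9.79 in spontaneous tumours for 1435434_at, but 8.58 and 8.31 for 1456505_at. Without spontaneous tumours 2 and 6 and cobalt tumour 6, the difference of the brightest probe set turned to -0.19. The transcript that each probe set covers is not given in the sources used here.

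**Figure D4:**
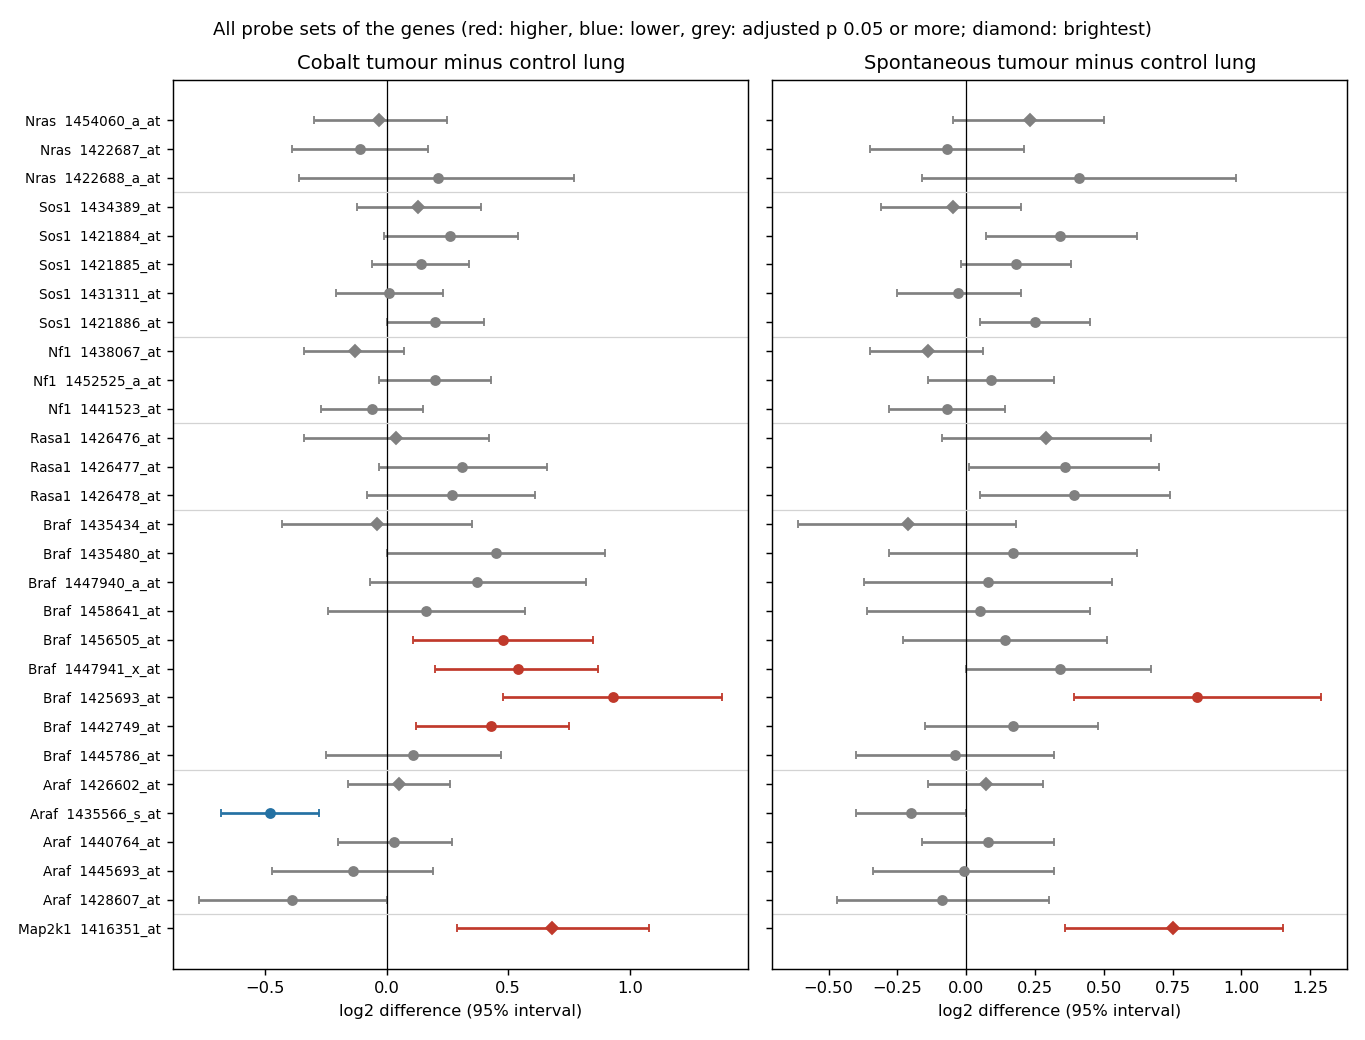
Log2 difference from control lung with its 95% interval for all 29 probe sets of the 7 genes, in cobalt tumours (left) and spontaneous tumours (right), with diamonds for the brightest probe set of a gene and colour for a limma adjusted p under 0.05. In cobalt tumours 5 probe sets are higher and 1 is lower, and in spontaneous tumours 2 are higher.

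Araf, the RAF kinase encoded on the X chromosome, did not pass the test by its brightest probe set. It averaged 8.90 ± 0.20 in cobalt tumours, 8.92 ± 0.18 in spontaneous tumours and 8.85 ± 0.13 in controls (SD, n = 6 each), with differences from controls of 0.05 (limma adjusted p = 0.747) in cobalt and 0.07 (limma adjusted p = 0.634) in spontaneous tumours. Another of its 5 probe sets, 1435566_s_at, was lower in cobalt tumours. Its level was 8.13 to 8.69 in cobalt tumours (median 8.47), 8.58 to 8.98 in spontaneous tumours (median 8.72) and 8.82 to 9.04 in controls. All 6 cobalt tumours and 4 of 6 spontaneous tumours lay below every control. The difference was -0.48 in cobalt tumours (limma adjusted p = 0.000706) and -0.20 in spontaneous tumours (limma adjusted p = 0.109). Cobalt minus spontaneous it was -0.28 (95% interval -0.47 to -0.08, limma adjusted p = 0.27). The suffix of this probe set marks probes that can match more than 1 gene. Averaged over all 5 probe sets the sign of Araf turned, to -0.18 in cobalt (limma adjusted p = 0.129) and -0.03 in spontaneous tumours (limma adjusted p = 0.822). Lsm14b (r = 0.78) and Dnajc22 (r = 0.77) were most like the brightest probe set.

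In all, 6 of the 29 probe sets (20.7%) were called in cobalt tumours, 5 higher and 1 lower, and 2 of 29 (6.9%) in spontaneous tumours, both higher, against 33.1% of all probe sets in each. Between the tumour groups 0 of 29 were called by limma, against 0.0658% of all probe sets, and 1 of 29 had an unadjusted p under 0.05. Without spontaneous tumours 2 and 6 and cobalt tumour 6, 10 and 7 of the 29 were called in cobalt and spontaneous tumours. More of all genes were called in both comparisons in this setting too. The share of all probe sets called in it is not given here, so these counts have no background to stand against. The calls of Map2k1, of 1425693_at in both tumour groups, and of 1447941_x_at and 1435566_s_at in cobalt tumours were kept in all settings tried. With a mean under 6, a level set by choice, 10 of the 29 probe sets were taken as dim. Whether they lie above background is not known, since no detection calls were used here.

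Of 103 further genes of the pathway in 7 lists, 95 were measured, and 8 were not analysed here. In cobalt tumours 25 were higher and 29 lower than in controls (56.8% of 95), and in spontaneous tumours 23 were higher and 23 lower (48.4%). Over all genes the shares called were 34% in cobalt and 34.6% in spontaneous tumours, with 14.7% and 16.4% higher, and the counts of each list stand against these. Between cobalt and spontaneous tumours 0 of the 95 were called by limma, and 13 had an unadjusted p under 0.05, against 2105 of 18193 genes. Cell type markers moved with the same groups beyond those given above. Markers of alveolar type 1 cells (6 of 8 lower in each tumour group), club cells (5 of 5 lower in cobalt and 4 of 5 in spontaneous tumours) and smooth muscle and pericytes (5 of 6 in each) were lower. Proliferation markers were higher for 1 of 5 in cobalt and 5 of 5 in spontaneous tumours, with a mean of 5.73 to 8.58 in cobalt tumours, 7.82 to 9.63 in spontaneous tumours and 6.24 to 6.92 in controls. Their part in the results for the lists was not tested. At least 1 array had a level under 6 for Rasgrf1, Rasgrf2, Map3k8, Rin1, Tiam1 and Ereg, so the fitted differences of these genes rest in part on levels not shown to be above background, and their size is uncertain.

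Among 14 other RAS-family GTPases, 1 was higher and 7 were lower in each tumour group, with a median log2 difference of -0.22 in cobalt and -0.28 in spontaneous tumours. The gene that rose was Rala, a GTPase of the RAL branch (0.49 in cobalt, limma adjusted p = 0.00865, and 0.62 in spontaneous tumours, limma adjusted p = 0.00157). Its call in cobalt tumours was lost when all probe sets of the gene were averaged (0.18, limma adjusted p = 0.102). Rras, a RAS relative linked to integrin adhesion, averaged 9.50 ± 0.54 in cobalt tumours, 9.87 ± 0.47 in spontaneous tumours and 10.82 ± 0.19 in controls, a difference of -1.32 in cobalt (limma adjusted p = 0.000279) and -0.95 in spontaneous tumours (limma adjusted p = 0.00419). Mras, a partner of the SHOC2 phosphatase complex, differed by -0.94 in cobalt and -1.07 in spontaneous tumours, and its groups did not overlap with the controls. The share of all genes below the controls without overlap is not given here.

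Of 15 measured activators and adaptors, 3 were higher and 7 lower in cobalt tumours, and 2 were higher and 6 lower in spontaneous tumours. Sos2, the paralogue of Sos1, averaged 10.09 ± 0.21 in cobalt tumours, 9.67 ± 0.21 in spontaneous tumours and 9.15 ± 0.25 in controls. That is 1.91-fold higher in cobalt (limma adjusted p = 2.41e-05) and 1.43-fold higher in spontaneous tumours (limma adjusted p = 0.00399). The adaptor Shc1, which links receptors to Grb2 and Sos proteins, was 2.35-fold and 2.10-fold higher. The 3 largest falls that passed the test were those of 3 more exchange factors. The log2 difference was -2.38 in cobalt and -2.62 in spontaneous tumours for Rasgrp2, -2.19 and -2.33 for Rasgrf2, and -1.41 and -1.45 for Rasgrp3. Averaged over all probe sets of a gene, it was -1.36 in cobalt and -1.56 in spontaneous tumours for Rasgrp2, and -1.40 and -1.53 for Rasgrf2, all still called. Rasgrp2 averaged 6.83 ± 0.64 in cobalt tumours, 6.58 ± 0.36 in spontaneous tumours and 9.20 ± 0.17 in controls. Another exchange factor, Rasgrf1, was uneven among cobalt tumours, at 6.17 to 9.47 with a median of 6.59, against 5.93 to 6.63 in spontaneous tumours and 5.43 to 6.05 in controls. It was called in cobalt tumours (1.66, limma adjusted p = 0.0107) but not between the tumour groups (1.20, limma adjusted p = 0.322), and its call in cobalt tumours was lost with only the arrays with an Xist level above 10 (limma adjusted p = 0.051). In spontaneous tumours its difference was 0.46 (limma adjusted p = 0.481), called with only the 12 arrays compared (limma adjusted p = 0.0252) and by permutation test (adjusted p = 0.0401). The probe set used for Rasgrf1 has the suffix _s_at, which marks probes that can match more than 1 gene. These falls went with lower endothelial, T and NK cell and ciliated markers, whose part in them was not tested: 10 of 10, 5 of 6 and 6 of 6 of these markers were lower in cobalt tumours and 10 of 10, 4 of 6 and 6 of 6 in spontaneous tumours. The mean of the T and NK cell markers was 6.24 to 6.88 in cobalt tumours, 6.24 to 7.53 in spontaneous tumours and 7.27 to 7.80 in controls, and that of the ciliated markers 6.02 to 8.46 in cobalt tumours, 6.25 to 7.43 in spontaneous tumours and 8.86 to 9.28 in controls.

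Of 16 measured inhibitors of RAS, 5 were higher and 3 lower in cobalt tumours, and 5 were higher and 2 lower in spontaneous tumours. Spred1, which brings neurofibromin to the membrane, averaged 11.46 ± 0.57 in cobalt tumours, 11.09 ± 0.39 in spontaneous tumours and 9.48 ± 0.23 in controls, without overlap with the controls. It was 3.95-fold higher in cobalt (limma adjusted p = 5.3e-06) and 3.07-fold higher in spontaneous tumours (limma adjusted p = 3.89e-05). Lztr1, an adaptor of a ubiquitin ligase for RAS proteins, was 2.45-fold higher in cobalt and 2.74-fold higher in spontaneous tumours, by a probe set with the suffix _x_at. The GTPase-activating protein Rasa2 was 1.74-fold higher in cobalt tumours (limma adjusted p = 0.00903) and 1.52-fold higher in spontaneous tumours (limma adjusted p = 0.0425), and the call in spontaneous tumours was lost in 12 settings, among them those without control 1, 2 or 5 or spontaneous tumour 2, 4 or 6. Its relative Rasal2 fell by 2.25 in cobalt and by 1.90 in spontaneous tumours on the log2 scale.

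Of 12 measured genes of the MAPK cascade and its scaffolds, 3 were higher and 2 lower in each tumour group. Lamtor2, a subunit of the scaffold that holds MEK1 on late endosomes, was 1.23-fold higher in cobalt (limma adjusted p = 0.0142) and 1.45-fold higher in spontaneous tumours (limma adjusted p = 0.000171). Its call in cobalt tumours was lost under cyclic loess normalization and with only the arrays with an Xist level above 10. Map3k8, a kinase that can phosphorylate MEK1 in place of RAF, had a log2 difference of -1.24 in cobalt (limma adjusted p = 0.000838) and -0.83 in spontaneous tumours (limma adjusted p = 0.0153). The call in spontaneous tumours was lost with Y-linked RNA as a covariate (-0.66, limma adjusted p = 0.124) and with only the arrays with an Xist level above 10 (limma adjusted p = 0.087). Map2k2, which encodes MEK2, was looked at after its values were seen, as the paralogue of Map2k1. It differed by 0.32 in cobalt (limma adjusted p = 0.056) and by 0.25 in spontaneous tumours (limma adjusted p = 0.124), and it was called in cobalt tumours in 9 alternative settings (such as without cobalt tumour 6, at 0.38, limma adjusted p = 0.0234). Whether Map2k1 and Map2k2 differ in their change was not tested.

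Of 10 measured genes of RAS lipid modification and trafficking, 1 was higher and 4 lower in cobalt tumours, and 1 was higher and 0 lower in spontaneous tumours. Zdhhc9, which palmitoylates RAS proteins, was 1.79-fold higher in cobalt tumours (limma adjusted p = 0.00173), with a difference of 0.45 in spontaneous tumours (limma adjusted p = 0.0679). In spontaneous tumours it gained a call in 5 settings (such as with only the 12 arrays compared, limma adjusted p = 0.00714). Icmt, which methylates the end of prenylated RAS, had a difference of -0.63 in cobalt (limma adjusted p = 0.0172) and -0.47 in spontaneous tumours (limma adjusted p = 0.0688). Its call in cobalt tumours was lost with only the arrays with an Xist level above 10 (limma adjusted p = 0.0591), and spontaneous tumours gained a call in 6 settings (such as without spontaneous tumour 2, at -0.63, limma adjusted p = 0.00836). Of 15 measured effectors outside RAF, 2 were higher and 6 lower in cobalt tumours, and 4 were higher and 6 lower in spontaneous tumours. Rin1, at 5.34 to 5.49 in controls and so not shown to be above background there, was higher by a fitted 1.94 in cobalt tumours (limma adjusted p = 0.00187) and 1.71 in spontaneous tumours (limma adjusted p = 0.00491) on the log2 scale. Over all probe sets of Rin1 these values were 1.22 and 1.07, and without spontaneous tumours 2 and 6 and cobalt tumour 6 the difference in spontaneous tumours was 0.99, all called. The RAC exchange factor Tiam1 had a log2 difference of -1.62 in cobalt and -1.75 in spontaneous tumours, and the phospholipase Plce1 of -1.24 and -1.22. Over all probe sets of Tiam1 the values were -0.60 and -0.70, both called, and its call in spontaneous tumours was lost with Y-linked RNA as a covariate (-1.27, limma adjusted p = 0.0579) and with only the arrays with an Xist level above 10 (limma adjusted p = 0.0517). The call of Plce1 in cobalt tumours was lost without cobalt tumour 5 (limma adjusted p = 0.0575) and with Y-linked RNA as a covariate (limma adjusted p = 0.0631). In spontaneous tumours it was lost in 6 settings: without spontaneous tumour 1, 3 or 5, by permutation test, with the Y-linked covariate, and with only the arrays with an Xist level above 10 (-0.46, limma adjusted p = 0.489). Without spontaneous tumours 2 and 6 and cobalt tumour 6 it was -1.91 in spontaneous tumours.

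Of 13 measured genes that MAPK signalling is known to induce, 10 were higher and 0 lower in cobalt tumours, and 7 were higher and 0 lower in spontaneous tumours, against 14.7% and 16.4% of all genes called higher. Their median log2 difference was 1.15 in cobalt and 0.95 in spontaneous tumours, against -0.03 over all genes. Dusp4, a phosphatase that acts back on ERK, averaged 10.31 ± 0.71 in cobalt tumours, 10.52 ± 0.49 in spontaneous tumours and 7.49 ± 0.28 in controls. It was 7.09-fold higher in cobalt (limma adjusted p = 1.49e-06) and 8.18-fold higher in spontaneous tumours (limma adjusted p = 6.77e-07). Ereg, the growth factor epiregulin, averaged 9.72 ± 1.79 in cobalt tumours, 8.33 ± 1.98 in spontaneous tumours and 4.87 ± 0.18 in controls, a fitted log2 difference of 4.85 in cobalt and 3.46 in spontaneous tumours against controls not shown to be above background. In spontaneous tumours it was 2.35 without spontaneous tumours 2 and 6 and cobalt tumour 6, and 4.49 with only the arrays with an Xist level above 10, both called. One gene of this list, Etv5, is also on the list of alveolar type 2 markers. Of 8 such markers 6 were higher in cobalt and 4 in spontaneous tumours. Their mean in spontaneous tumours 2 and 6 (12.40 and 12.29) lay below that of every control (12.66 to 12.93).

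**Figure D5:**
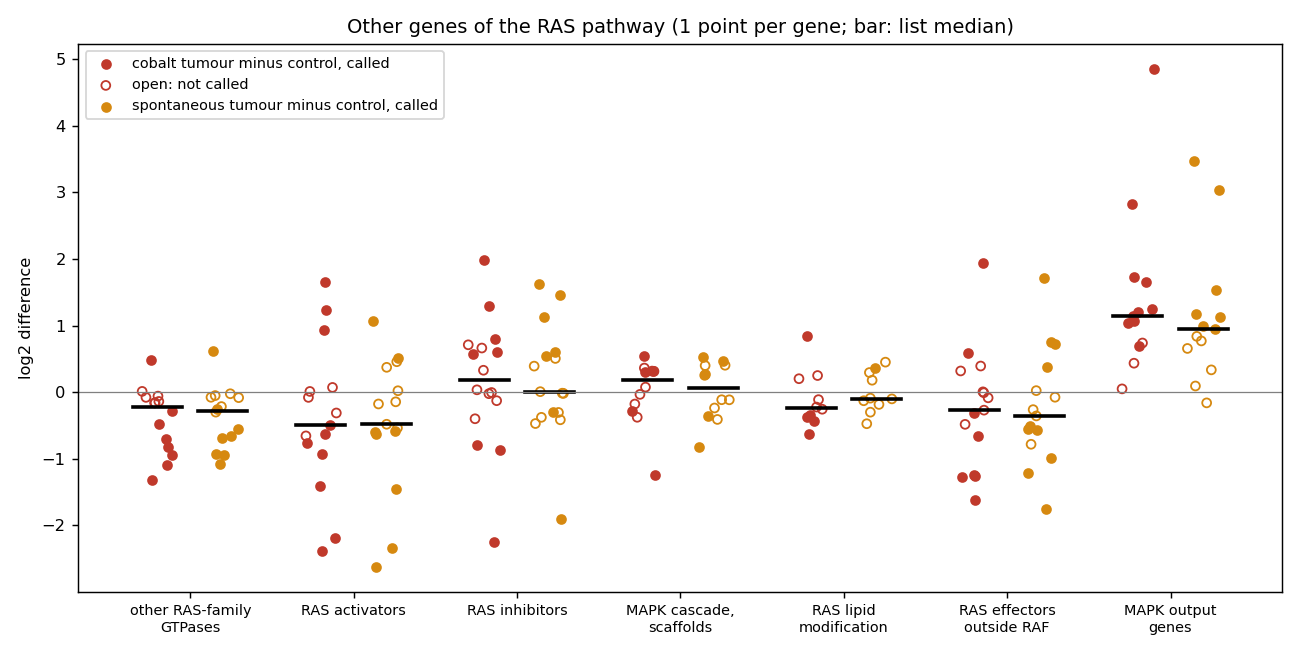
Log2 difference from control lung of the measured genes of 7 pathway lists, with 1 point per gene in cobalt tumours (left of each pair) and spontaneous tumours (right), filled where limma's adjusted p was under 0.05, and a bar at each list's median. The median of MAPK output genes is 1.15 in cobalt and 0.95 in spontaneous tumours, and that of the activators is -0.49 and -0.48.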

How the data were processed

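The deposited values are log2 levels from RMA, as named in the submitters' processing notes; the RMA version is not given in the sources read. RMA in its usual form corrects background, makes the arrays' distributions alike and summarises each probe set, which can hide a shift of all genes and can make changes of dim probe sets too small. No value was changed before the tests; they span 3.34 to 15.26, and the medians of the 18 arrays 6.32 to 6.45.

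Of 45101 probe sets, 64 were controls, 34945 carried a single gene symbol in the platform annotation; those with several (932) or none (9160) were left out. Entrez identifiers of 34741 matched the RefSeq table of GRCm38.p6, and 0 symbols differed. A gene's value was that of its probe set with the highest mean over all arrays, for 18193 genes, of which 9010 had several probe sets.

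All 18 arrays entered 1 fit with 3 group means, using lmFit and eBayes of limma 3.58.1 (R 4.3.3), with two-sided tests, Benjamini-Hochberg adjustment over all genes and a call at 0.05. The submitters used ORIOGEN for each kind of tumour against control; it is not used here, and tumours were also set against each other. The probe sets were tested in a fit over all 34945. In simulated data for cobalt tumours against control with 18193 genes, 86% of genes changed by 1 and 99% of those changed by 2 on the log2 scale were recovered. Only 100 genes were changed at each size, and each gene had 1 spread for all groups and independent noise. In the data 34% of genes were called in this comparison, and genes such as Map2k1 spread more in tumours. Recovery in the data may therefore differ, and the share of false calls is not given here. Figures were drawn with matplotlib 3.10.9. Precision is limited by how many arrays there are.

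The members, lists and tests were chosen with earlier results of these data known. Named pathway genes were up to 3 rises and 3 falls per list and tumour group, by log2 difference, not all printed, and the 2 genes most correlated with each member. Same-numbered arrays of different groups correlated at -0.34 to 0.19 in their deviations, and the main fit did not pair them. These values cannot exclude a pairing, since differences between tumours also enter the deviations. Alternatives were another normalization, filters, probe set rules, variance models, array weights, a replicate block, Y-linked RNA and Xist, leaving out arrays, and permutation. Their use on probe sets and lists was added after seeing the data.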

Additional observations from a re-analysis of the deposited data

Results flagged for a closer look

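Of 162 groups of 6 arrays tested for 1 array far from the others (by Dixon's gap-to-range ratio), 13 held one. Chance alone gives such a gap in about 5% of independent groups. The groups here share arrays and genes, so the 13 are not independent and cannot be judged by that rate. Most pathway genes among them were picked for large differences from controls. For such genes an array that resembles the controls falls on their side, so that side is not a separate result. Cobalt tumour 6 was the array in 5 of them, and in each it lay on the side of the controls: Rasgrp3 8.84 (nearest other cobalt tumour 7.96), Rasal2 9.39 (7.82), Map3k8 7.25 (6.09), Tiam1 8.62 (6.85) and Dusp4 8.91 (10.33). In the spontaneous tumours, Icmt was 9.75 in tumour 2 (nearest 9.10), and the Araf probe set 1440764_at was 6.32 in tumour 4 (nearest 5.86).

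Among controls, Rras was 10.45 in control 1 (nearest 10.80). The Braf probe sets 1442749_at and 1425693_at were 5.39 in control 1 (nearest 4.96) and 6.82 in control 3 (nearest 6.55). The Sos1 probe set 1421885_at was 5.20 in control 2 (nearest 4.85), the Rasa1 probe set 1426478_at 6.55 in control 2 (nearest 7.03) and the Nf1 probe set 1441523_at 4.95 in control 1 (nearest 5.19).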

How the results depend on the processing

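Of 3120 values under 30 alternative settings, 2932 kept their direction and side of the threshold or, for counts, stayed within 1.5 times the reported count, 55 lost and 30 gained a call, 62 moved and 41 turned sign, none of these last with either value past the threshold. Map2k1 kept its call throughout, at 0.57 to 0.78 in cobalt and 0.48 to 0.96 in spontaneous tumours. With all probe sets in place of genes, 11570 were called in cobalt and 11582 in spontaneous tumours against control, and 23 between the tumour groups. That last count, 15 genes, became 26 without the 6064 dimmest, 24 with array weights, 1 with only the 12 arrays compared, 29 with Y-linked RNA as covariate, 0 with Xist above 10, 354 without spontaneous tumours 2 and 6 and cobalt tumour 6, 0 by permutation test and 1 to 82 without 1 array. With the replicate block it was 1, and the block changed no member's call. Member probe sets called were 10 in cobalt and 7 in spontaneous tumours without those 3 arrays, with no share over all probe sets given. They were 5 in spontaneous tumours with array weights and also under cyclic loess, and 2 to 4 without 1 array.

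Signs of uncalled members turned in these settings. With the mean of all probe sets, cobalt minus control was 0.021 for Nras, 0.0021 for Nf1, 0.38 for Braf and -0.18 for Araf, and spontaneous minus control 0.14 for Sos1, 0.17 for Braf and -0.030 for Araf. Under cyclic loess, Rasa1 and Araf were -0.065 and -0.0117 in cobalt minus control, Araf -0.020 in spontaneous minus control and 0.00785 in cobalt minus spontaneous. With Xist above 10, cobalt minus control was 0.00602 for Nras, 0.10 for Braf and -0.0194 for Araf, and cobalt minus spontaneous -0.040 for Nf1. With the Y-linked covariate, Braf was 0.020 in cobalt minus control. With array weights, cobalt minus spontaneous was 0.082 for Map2k1, 0.010 for Araf and -0.018 for Braf. Without the 3 arrays, Braf was 0.097 in spontaneous minus control, and cobalt minus spontaneous was 0.056 for Rasa1, 0.082 for Araf, -0.19 for Braf and 0.30 for Map2k1. Without 1 array, cobalt minus control ran from -0.10 to 0.018 for Nras, -0.097 to 0.055 for Braf and -0.099 to 0.11 for Rasa1, and cobalt minus spontaneous from -0.062 to 0.062 for Nf1, -0.18 to 0.057 for Map2k1 and -0.076 to 0.032 for Araf. The causes were not tested. Background on dim probe sets is unknown, which limits the 3 Sos1, 2 Nf1, 2 Braf and 3 Araf probe sets with means under 6.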
